A study of Mus musculus with 24 samples.

Results

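Ucp2 and Ucp3 are neighbouring genes for mitochondrial carrier proteins, and their RNA levels were followed across 24 libraries of whole mouse heart. They are the 2 rows whose symbol in the deposited annotation was Ucp2 or Ucp3, of 20961 genes listed. Both passed the filter on low counts, which left 17203 genes to test. Hearts came from males and females of NZO/HlLtJ, a polygenic strain that becomes obese, CAST/EiJ, an inbred strain derived from wild mice, and C57BL/6J, a common laboratory strain. From week 6 the mice ate a diet labelled 44% fat + fiber, called high fat and high sugar in the protocol text, or one labelled 10% fat + fiber, called control, and hearts were taken at week 15. All carried the genotype label WT and no other treatment. With 2 libraries for every combination of strain, sex and diet (12 groups), each strain had 8 and each strain on a diet had 4. Nothing in the labels says whether libraries that share a group are from different mice. Every p-value below therefore reflects only the spread among these samples, which may be technical.

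Uncoupling proteins sit in the inner mitochondrial membrane and belong to the same carrier family as the ATP/ADP carriers. Ucp1, the founding member, lets protons flow back across that membrane in brown fat and so releases heat. Ucp2 is made in many tissues and in immune cells, and its product has been linked to the export of carbon intermediates and to oxidant control. Ucp3 is made mainly in skeletal muscle, brown fat and heart, and its RNA is known to climb with fasting and fatty acid supply through PPAR receptors, as do those of Pdk4 and Angptl4. Pdk4 is the kinase that shuts down pyruvate dehydrogenase, and Angptl4 is a secreted inhibitor of lipoprotein lipase.

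Both genes lie head to tail on the plus strand of mouse chromosome 7 (GRCm38). Ucp3 (ENSMUSG00000032942) spans chr7:100472990-100486432 and Ucp2 (ENSMUSG00000033685) spans chr7:100493337-100502020, with 6904 bases between them. The longest coding transcript in GENCODE M21 has 7 exons and 2448 bases for Ucp3, and 8 exons and 3988 bases for Ucp2. These transcripts share no identical run longer than 24 bases, although the genes are paralogs. The 3′ end of Ucp2 overlaps exons of Dnajb13, a testis and cilia chaperone gene on the opposite strand, over 305 bases. Ucp3 overlaps the antisense gene Gm10603 over 1857 bases, none of them exonic in both. The sources used here do not say whether counting used strand, so reads from the overlaps cannot be told apart by gene.

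The 250 bases before the RefSeq start of each gene (GRCm38.p6, plus strand), a start that can differ from the GENCODE one, are shown because the pair stand next to each other and yet differed between strains in opposite directions. Ucp3 is at chr7:100472741-100472990 with AGGTCA, the half-site of nuclear receptors, in capitals. Ucp2 is at chr7:100493108-100493357 with CCGCCC in capitals, which is the GC box GGGCGG read on the other strand.
Ucp3: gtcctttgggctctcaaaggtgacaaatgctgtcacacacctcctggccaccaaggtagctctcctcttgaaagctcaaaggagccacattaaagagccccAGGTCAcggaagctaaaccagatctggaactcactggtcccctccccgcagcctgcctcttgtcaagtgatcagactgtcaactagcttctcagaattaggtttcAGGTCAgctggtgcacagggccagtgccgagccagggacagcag
Ucp2: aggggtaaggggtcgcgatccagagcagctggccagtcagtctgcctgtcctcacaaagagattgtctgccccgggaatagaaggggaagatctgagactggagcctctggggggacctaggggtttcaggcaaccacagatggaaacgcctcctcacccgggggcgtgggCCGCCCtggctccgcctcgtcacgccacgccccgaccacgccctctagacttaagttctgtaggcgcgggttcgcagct

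AGGTCA, searched on both strands, was found at positions -149 and -44 from the Ucp3 start and nowhere in the Ucp2 window. Of 32851 RefSeq promoter windows of the same length, 14.02% held it and 1.36% held it at least 2 times. An exact direct repeat of that half-site with 1 base between was in neither window and in 0.0335% of all windows. Inexact repeats were not searched. GGGCGG was found 1 time before Ucp2, at position -79 on the minus strand, and not before Ucp3, and 32.7% of windows held it. The Ucp2 window had 16 CpG pairs and 63.6% G and C, and the Ucp3 window had 3 CpG pairs and 54.8% G and C, beside medians of 6.0 pairs and 52.4% over all windows. These are matches of letters in the reference strain's sequence, and no binding was measured.

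Total counts per library ranged from 30205073 to 52254040. Ucp2 had 1803 to 10343 counts and Ucp3 had 329 to 3681 counts per library, so counting error is small beside the spread between libraries. Cardiomyocyte markers were high in all libraries, with Myh6 between 27661 and 35504 CPM (counts per 1000000 of the TMM-scaled library total). Of 14 skeletal muscle markers 12 were used, and 8 of them stayed at or under 1.23 CPM in every library, among them Myh4 and Mylpf. The other 4 were Acta1 (93.7 to 3433 CPM), Ckm (1078 to 1732 CPM), Mybpc2 (13.8 to 43.5 CPM) and Atp2a1 (0.747 to 9.03 CPM), of which Acta1 and Ckm are also expressed in heart muscle. The list summed to 2598 to 4870 CPM in NZO/HlLtJ, 1335 to 1626 CPM in CAST/EiJ and 1351 to 1760 CPM in C57BL/6J, so NZO/HlLtJ stood above both others without overlap, and its part in the strain differences of Ucp2 and Ucp3 was not tested. Ucp1, the brown fat marker, ranged from 1.12 to 140.3 CPM and was highest in 1 CAST/EiJ male on 10% fat, whose Ucp3 level was 23.8 CPM. In bulk tissue, fewer cells of a type and less RNA per cell cannot be told apart.

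Ucp2 stood highest in CAST/EiJ hearts, more than 2-fold above C57BL/6J, with NZO/HlLtJ slightly above C57BL/6J. On 44% fat, the CAST/EiJ males had 168 and 220.4 CPM and the females 162 and 227 CPM, and on 10% fat the males had 160.0 and 218 CPM and the females 136 and 182 CPM. In NZO/HlLtJ, the males had 105 and 93.3 CPM and the females 87.8 and 87.4 CPM on 44% fat, beside 78.4 and 93.3 CPM in males and 100.0 and 106 CPM in females on 10% fat. In C57BL/6J, the males had 100.5 and 97.4 CPM and the females 62.3 and 80.2 CPM on 44% fat, beside 67.2 and 75.9 CPM in males and 59.1 and 79.1 CPM in females on 10% fat. All 8 CAST/EiJ libraries lay above all 16 of the other strains, while NZO/HlLtJ and C57BL/6J libraries overlapped over most of their ranges.

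**Figure D1:**
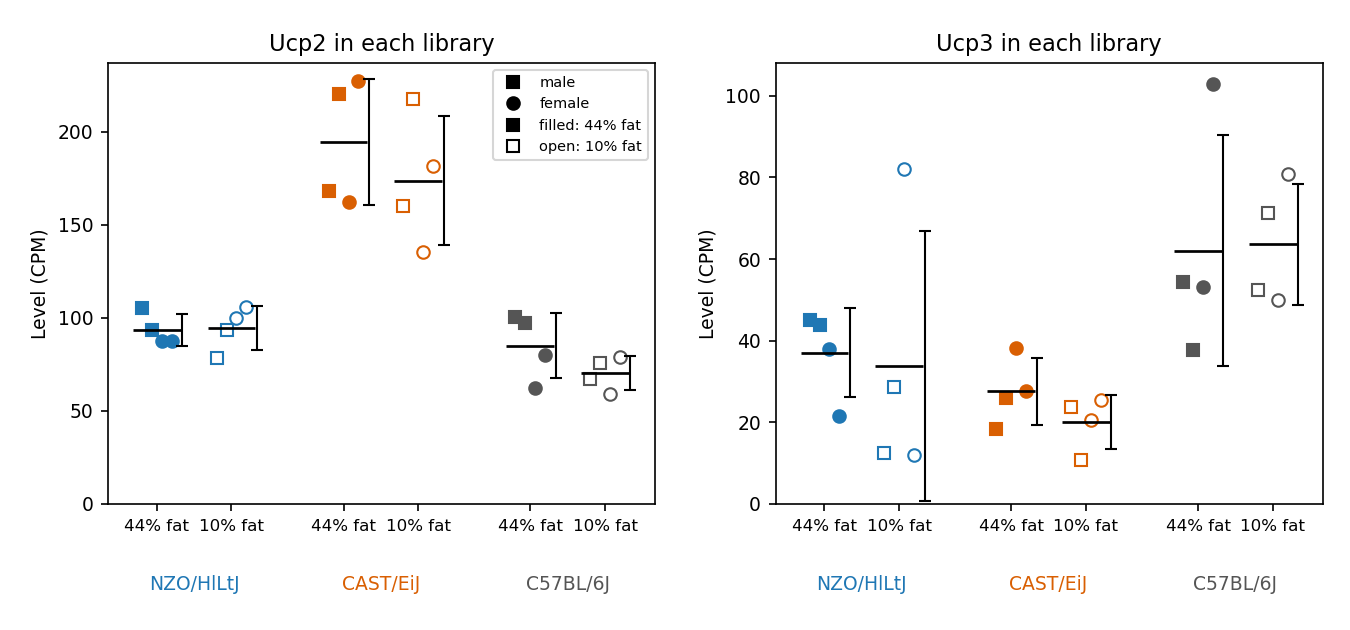
Levels of Ucp2 (left) and Ucp3 (right) in CPM in each of 24 heart libraries, by strain and diet. Squares are males, circles females, filled points 44% fat and open points 10% fat, and bars give the mean and SD of 4 libraries; Ucp2 is highest in CAST/EiJ without overlap, and Ucp3 is highest in C57BL/6J with the widest scatter in NZO/HlLtJ.

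Mean Ucp2 was 184 ± 33.7 CPM in CAST/EiJ and 77.7 ± 15.2 CPM in C57BL/6J (SD, n = 8 each), a log2 difference of 1.26 (SE 0.11, edgeR adjusted p = 1.15e-07). That is a fold of 2.39 with a 95% interval of 2.04 to 2.80. Both Ucp2 and Ucp3 were called in this comparison, in which 58.8% of the 17203 genes tested were called, so a call alone does not set the pair apart. A larger absolute log2 difference was seen in 13.8% of the genes tested for Ucp2 and in 11.9% for Ucp3.

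NZO/HlLtJ hearts averaged 93.9 ± 9.52 CPM of Ucp2 (SD, n = 8), which was 0.97 lower than CAST/EiJ on the log2 scale (log2 difference -0.97, SE 0.11, edgeR adjusted p = 1.65e-06). Ucp2 was the 1 of the 2 genes called there, beside 60.3% of all genes tested. Against C57BL/6J, the NZO/HlLtJ difference was 0.28 (SE 0.11, edgeR adjusted p = 0.0492), again with Ucp2 the only 1 of the 2 called, beside 35.5% of all genes. That call lay at the edge of the threshold. It was lost under 8 of the other ways of fitting and without any 1 of 13 libraries, with log2 differences of 0.24 to 0.34 when 1 library was left out. The order of Ucp2 was therefore CAST/EiJ above both others, with the lower 2 strains close together.

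The titles carry sample identifiers in 3 ranges of 8 libraries each, and what the ranges stand for is not given in the sources used here. The first held 1 library of each sex and diet from CAST/EiJ and C57BL/6J, and the others held all NZO/HlLtJ libraries and the rest. In CAST/EiJ, Ucp2 was 136 to 168 CPM in the first range, 182 and 218 CPM in the second and 220.4 and 227 CPM in the third. In CAST/EiJ the second range held only mice on 10% fat and the third only mice on 44% fat, so diet and range cannot be told apart there. The C57BL/6J libraries of the second range were all male and those of the third all female. In NZO/HlLtJ the second range held only females on 10% fat and males on 44% fat, and the third held the reverse. Within a sex of NZO/HlLtJ diet and range therefore cannot be told apart, nor can sex and range within a diet. Mean Ucp2 in NZO/HlLtJ was 101.1 CPM in the second range and 86.7 CPM in the third. Within each range the strain difference stood: CAST/EiJ minus C57BL/6J gave log2 differences of 1.14 in the first (SE 0.10), 1.21 in the second (SE 0.13) and 1.49 in the third (SE 0.08), with edgeR adjusted p-values of 4.39e-05, 0.000120 and 7.56e-09. NZO/HlLtJ minus C57BL/6J was 0.22 in the second range (adjusted p = 0.305) and 0.12 in the third (adjusted p = 0.231), neither of them called.

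**Figure D2:**
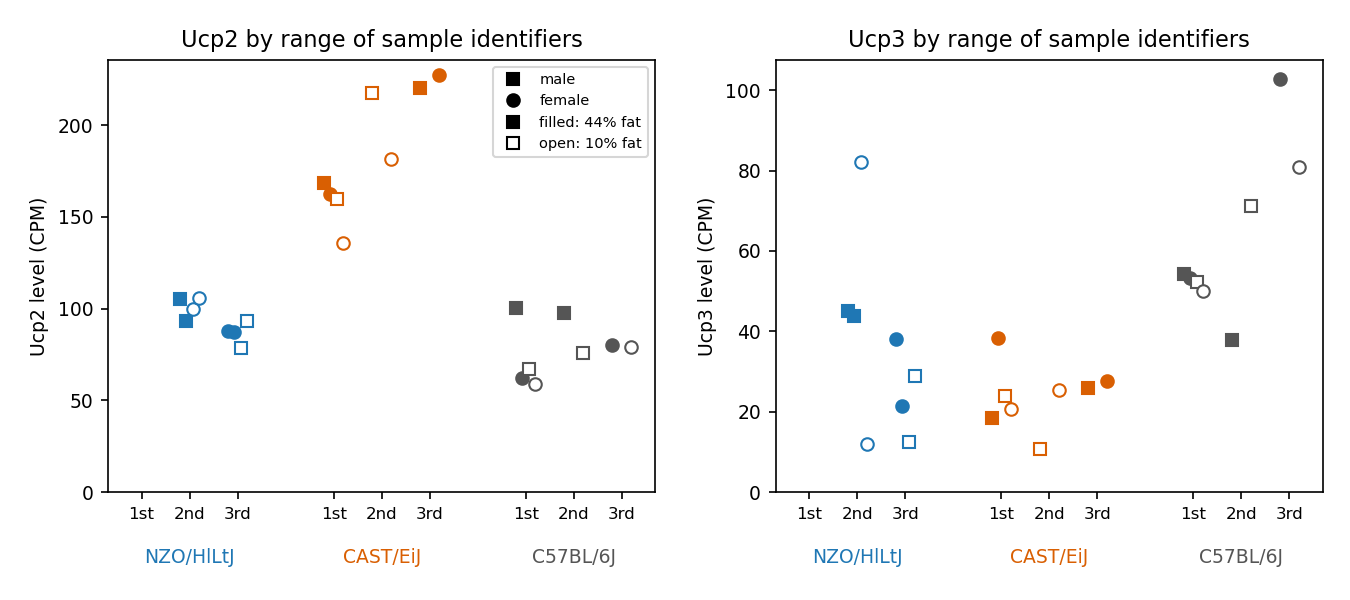
Ucp2 (left) and Ucp3 (right) levels in CPM by strain and by the range of sample identifiers in the titles, 8 libraries in each range. Squares are males, circles females, filled points 44% fat and open points 10% fat; in CAST/EiJ, Ucp2 is 136 to 168 CPM in the first range and 182 to 227 CPM in the others, and every CAST/EiJ library is above the other strains.

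Markers of other cells also moved with Ucp2 within CAST/EiJ. The summed level of the 5 erythroid markers (globins and Alas2) was 4314 to 10365 CPM in the first-range CAST/EiJ libraries and 12883 to 21877 CPM in the other 4, and none of the 5 was at 0 in any library. Over whole strains that sum ran from 4314 to 21877 CPM in CAST/EiJ, from 4527 to 25725 CPM in NZO/HlLtJ and from 2891 to 8767 CPM in C57BL/6J. The NZO/HlLtJ female on 10% fat with the highest sum had 106 CPM of Ucp2. That level was the highest of its strain and below all CAST/EiJ libraries. The 10 macrophage markers summed to 247 to 315 CPM in CAST/EiJ, 230.2 to 325 CPM in NZO/HlLtJ and 267 to 340 CPM in C57BL/6J, all overlapping. The part of red cell RNA in the Ucp2 levels was not tested.

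Ucp3 showed the opposite order, highest in C57BL/6J and lowest in CAST/EiJ. On 44% fat, the CAST/EiJ males had 18.5 and 26.0 CPM and the females 38.3 and 27.7 CPM, and on 10% fat the males had 23.8 and 10.7 CPM and the females 20.5 and 25.4 CPM. In NZO/HlLtJ, the males had 45.1 and 43.9 CPM and the females 38.0 and 21.4 CPM on 44% fat, beside 12.5 and 28.8 CPM in males and 82.1 and 11.99 CPM in females on 10% fat. In C57BL/6J, the males had 54.3 and 37.8 CPM and the females 53.3 and 103 CPM on 44% fat, beside 52.4 and 71.2 CPM in males and 50.02 and 80.9 CPM in females on 10% fat. The CAST/EiJ and C57BL/6J libraries were separate but for 1 touch, the CAST/EiJ female at 38.3 CPM and the C57BL/6J male at 37.8 CPM, both on 44% fat. NZO/HlLtJ libraries lay among those of both other strains, and their highest and lowest libraries were the 2 females on 10% fat.

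Mean Ucp3 was 23.9 ± 7.97 CPM in CAST/EiJ and 62.8 ± 20.9 CPM in C57BL/6J (SD, n = 8 each), a log2 difference of -1.41 (SE 0.36, edgeR adjusted p = 0.00449). CAST/EiJ hearts thus held 0.377 times the C57BL/6J level, with a 95% interval of 0.219 to 0.647. Within identifier ranges the difference was -1.08 in the first (SE 0.27, adjusted p = 0.0422), -1.58 in the second (SE 0.94, adjusted p = 0.303) and -1.77 in the third (SE 0.50, adjusted p = 0.0409). The direction held in each range, and the second did not pass the test.

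NZO/HlLtJ hearts averaged 35.5 ± 22.9 CPM of Ucp3 (SD, n = 8), between the other strains. The log2 difference was -0.88 against C57BL/6J (SE 0.35, edgeR adjusted p = 0.0735) and 0.53 against CAST/EiJ (SE 0.36, edgeR adjusted p = 0.219), and neither passed the test. Both values leaned on the same library. Without the NZO/HlLtJ female on 10% fat at 82.1 CPM, the difference from C57BL/6J was -1.37 (adjusted p = 0.00247) and that from CAST/EiJ was 0.04 (adjusted p = 0.922). Without the other female of that group, at 11.99 CPM, the difference from CAST/EiJ was 0.73 (adjusted p = 0.0319). The erythroid marker sum was 4890 CPM in the female with 82.1 CPM of Ucp3 and 25725 CPM in the one with 11.99 CPM. Its part in these Ucp3 levels was not tested.

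**Figure D3:**
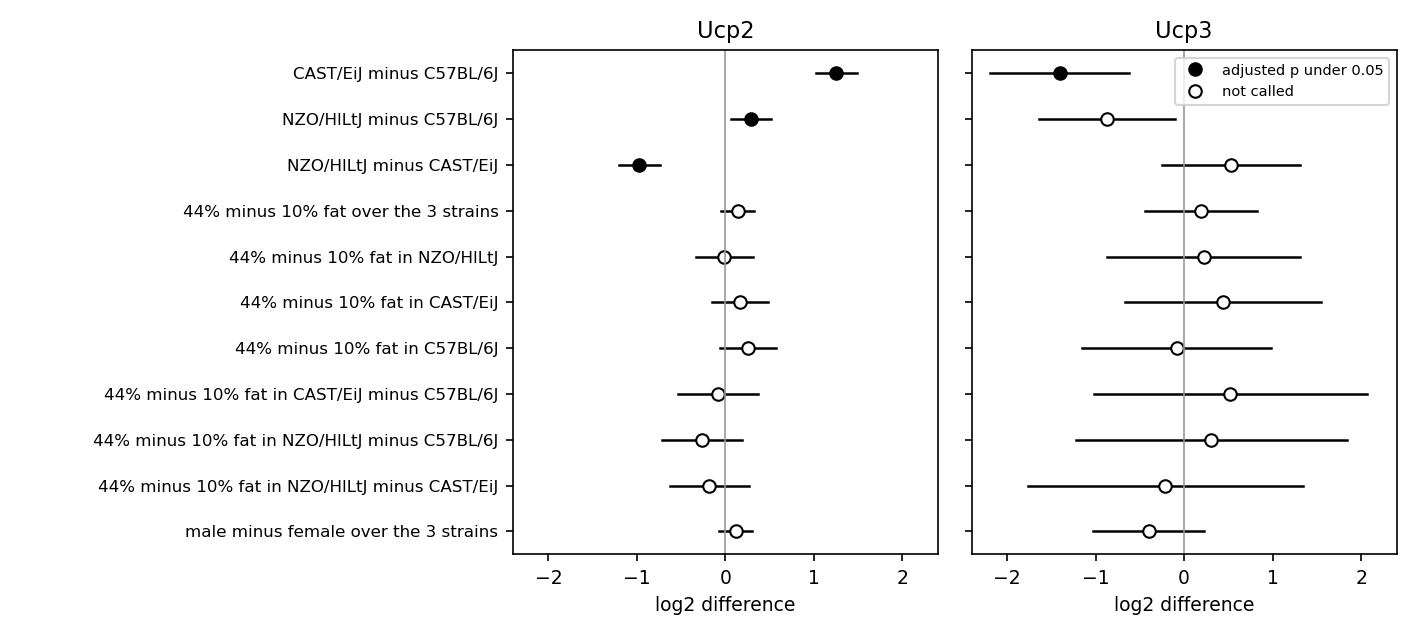
Log2 differences of Ucp2 (left) and Ucp3 (right) with 95% intervals for the strain, diet, diet by strain and sex comparisons, from 1 edgeR fit to 24 libraries. Filled points have an adjusted p under 0.05; these are the 3 strain differences of Ucp2 and CAST/EiJ minus C57BL/6J for Ucp3, and every diet and sex interval includes 0.

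Ucp3 was far more variable than Ucp2 between libraries of a group. Its biological coefficient of variation in the fit was 0.477, higher than in 94.3% of the genes tested, while that of Ucp2 was 0.147, higher than in 58.6%, and the median gene had 0.118. Pdk4 (0.551) and Angptl4 (0.747), the other fasting-responsive genes, were also among the most variable, above 96.3% and 98.6% of genes.

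Per kilobase of transcript, which allows the genes to be set side by side, Ucp2 was at 46.2 ± 8.45 CPM per kb in CAST/EiJ, 23.6 ± 2.39 in NZO/HlLtJ and 19.5 ± 3.80 in C57BL/6J (SD, n = 8 each). Ucp3 was at 9.75 ± 3.25 CPM per kb in CAST/EiJ, 14.5 ± 9.35 in NZO/HlLtJ and 25.7 ± 8.55 in C57BL/6J. Ucp2 thus exceeded 95.02% of 17142 genes in CAST/EiJ and Ucp3 exceeded 76.8%, whereas in C57BL/6J Ucp2 exceeded 88.0% and Ucp3 91.1%. The ratio of Ucp2 to Ucp3 per kilobase ran from 2.60 to 12.5 in CAST/EiJ (median 4.72), from 0.747 to 5.42 in NZO/HlLtJ (median 1.71) and from 0.478 to 1.58 in C57BL/6J (median 0.722). Every CAST/EiJ library had more Ucp2 than Ucp3 per kilobase, while in C57BL/6J the order varied by library. These lengths are of the longest coding transcript, of 5 for Ucp2 and 2 for Ucp3. A shorter transcript would give a higher level per kilobase for the same counts. The ratios, the ranks and which gene stands higher within a strain therefore depend on that choice. The ratios are a description without a test.

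The diet comparison asked whether hearts of mice on 44% fat differed from those on 10% fat. Neither gene was called. Averaged over the strains, the log2 difference of 44% minus 10% fat was 0.14 for Ucp2 (SE 0.09, 95% interval -0.05 to 0.32, edgeR adjusted p = 0.696) and 0.19 for Ucp3 (SE 0.29, 95% interval -0.44 to 0.82, edgeR adjusted p = 0.907). That is 0 of 2 genes, beside 0.157% of all genes called by edgeR. At an unadjusted edgeR p under 0.05 it was also 0 of 2, beside 1515 of 17203 genes. DESeq2 called 106 genes and limma-voom 28, again with neither of the 2 among them. Mean Ucp2 was higher on 44% fat in 5 of the 6 pairs of strain and sex, and mean Ucp3 in 4 of the 6. The NZO/HlLtJ pairs also set the second identifier range against the third, so diet and range cannot be told apart in them. As folds of 44% over 10% fat, the intervals run from 0.968 to 1.25 for Ucp2 and from 0.738 to 1.77 for Ucp3, so a larger change of Ucp3 than of Ucp2 could have gone unseen.

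By strain, mean Ucp2 was 93.5 ± 8.4 CPM on 44% fat and 94.4 ± 11.8 CPM on 10% fat in NZO/HlLtJ (log2 difference -0.01, edgeR adjusted p = 1.00). In CAST/EiJ it was 194.6 ± 33.9 CPM on 44% fat and 174 ± 34.7 CPM on 10% fat (0.17, adjusted p = 0.923), and in C57BL/6J it was 85.1 ± 17.6 CPM on 44% fat and 70.3 ± 9.0 CPM on 10% fat (0.25, adjusted p = 0.954; SD, n = 4 each). The groups overlapped in all 3 strains. In C57BL/6J both males on 44% fat (100.5 and 97.4 CPM) were above all other libraries of that strain.

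Mean Ucp3 was 37.1 ± 10.9 CPM on 44% fat and 33.8 ± 33.1 CPM on 10% fat in NZO/HlLtJ (log2 difference 0.22, edgeR adjusted p = 0.946). In CAST/EiJ it was 27.6 ± 8.2 CPM on 44% fat and 20.1 ± 6.6 CPM on 10% fat (0.44, adjusted p = 0.954), and in C57BL/6J it was 62.1 ± 28.3 CPM on 44% fat and 63.6 ± 14.9 CPM on 10% fat (-0.09, adjusted p = 1.00; SD, n = 4 each). The groups overlapped in all 3 strains here too.

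Within strains the background of diet calls was 0% of genes in NZO/HlLtJ, 0% in CAST/EiJ and 0.0407% in C57BL/6J by edgeR (0.0349% higher and 0.00581% lower on 44% fat). In NZO/HlLtJ, 1233 genes had an unadjusted edgeR p under 0.05, and DESeq2 called 12 genes, limma-voom 0 and limma on the authors' variance-stabilized values 2. The matching numbers in CAST/EiJ were 1137 genes by unadjusted edgeR p, 30 by DESeq2, 0 by limma-voom and 4 by limma on the variance-stabilized values. Neither Ucp2 nor Ucp3 was among the calls of these tools. Differences of the diet effect between strains were not called for either gene, beside 0% of genes for CAST/EiJ minus C57BL/6J, 0.00581% for NZO/HlLtJ minus C57BL/6J and 0% for NZO/HlLtJ minus CAST/EiJ. In the first of these 1123 genes had an unadjusted edgeR p under 0.05 and 9 were called by DESeq2, in the last 799 and 3, and limma-voom called 0 in both. For Ucp3 these differences were 0.52 (95% interval -1.02 to 2.06), 0.31 (-1.22 to 1.84) and -0.22 (-1.77 to 1.34), intervals too wide to tell strains apart. For Ucp2 they were -0.09 (-0.54 to 0.37), -0.27 (-0.72 to 0.19) and -0.18 (-0.63 to 0.27).

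Neither gene was called between males and females. The log2 difference of males minus females was 0.11 for Ucp2 (SE 0.09, edgeR adjusted p = 0.753) and -0.40 for Ucp3 (SE 0.29, edgeR adjusted p = 0.745), beside 0.372% of all genes called. Mean Ucp3 was higher in males in 1 of the 6 pairs of strain and diet, and mean Ucp2 in 4 of the 6. The NZO/HlLtJ pairs also set the second identifier range against the third, so sex and range cannot be told apart in them. The Ucp3 interval ran from -1.03 to 0.23 and the Ucp2 interval from -0.07 to 0.30. Mean Ucp3 in C57BL/6J was 52.5 CPM in the first identifier range, which held both sexes. It was 54.5 CPM in the second, which held only males of that strain, and 91.9 CPM in the third, which held only females. Sex and range cannot be told apart in those last ranges. Differences of the sex effect between strains were not called for either gene, beside 0% of genes by edgeR. The genes with an unadjusted edgeR p under 0.05 numbered 1023 for CAST/EiJ minus C57BL/6J, 796 for NZO/HlLtJ minus C57BL/6J and 1459 for NZO/HlLtJ minus CAST/EiJ. DESeq2 called 7, 6 and 36 genes in that order, and limma-voom 0.

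The genes on either side of Ucp2 and Ucp3 were compared between strains in the same fit. Protein-coding genes within 100 kb that entered the test were C2cd3 upstream of Ucp3, and Dnajb13, Coa4 and Mrpl48 downstream of Ucp2. In CAST/EiJ minus C57BL/6J all 4 were called, 3 higher and 1 lower, beside 58.8% of all genes called. Dnajb13 rose by 1.88 (SE 0.39, adjusted p = 0.000429), Coa4, which assists assembly of cytochrome oxidase, by 0.56 (SE 0.08), and Mrpl48, a mitochondrial ribosomal protein gene, by 0.50 (SE 0.04). C2cd3, a centriole gene, fell by 0.21 (SE 0.05, adjusted p = 0.000946). The coding genes higher in CAST/EiJ were thus Ucp2 and the 3 beyond it, and those lower were Ucp3 and C2cd3 before it. Whether position on the chromosome plays a part was not tested.

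Dnajb13 was close to silent, at 0.935 ± 0.580 CPM in CAST/EiJ and 0.237 ± 0.082 CPM in C57BL/6J (SD, n = 8 each), and reads from the 305 bases it shares with Ucp2 cannot be told apart. Within CAST/EiJ it was 0.220 to 0.737 CPM in the first identifier range and 0.909 to 1.76 CPM in the other libraries, the same split as Ucp2. Gm10603, antisense at the start of Ucp3, was at 1.27 ± 0.41 CPM in CAST/EiJ, 2.05 ± 0.832 CPM in NZO/HlLtJ and 1.86 ± 0.388 CPM in C57BL/6J, and its CAST/EiJ minus C57BL/6J difference was -0.60 (SE 0.21, adjusted p = 0.0227).

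In NZO/HlLtJ minus CAST/EiJ, 3 of the 4 coding neighbours were called, beside 60.3% of all genes, and all 3 were lower, Dnajb13 by 1.35 in absolute log2 units, Coa4 by 0.547 and Mrpl48 by 0.354. In NZO/HlLtJ minus C57BL/6J, 2 of the 4 were called, beside 35.5% of all genes, Mrpl48 higher at 0.14 (SE 0.04, adjusted p = 0.00646) and C2cd3 lower at -0.31 (SE 0.05, adjusted p = 4.86e-05).

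**Figure D4:**
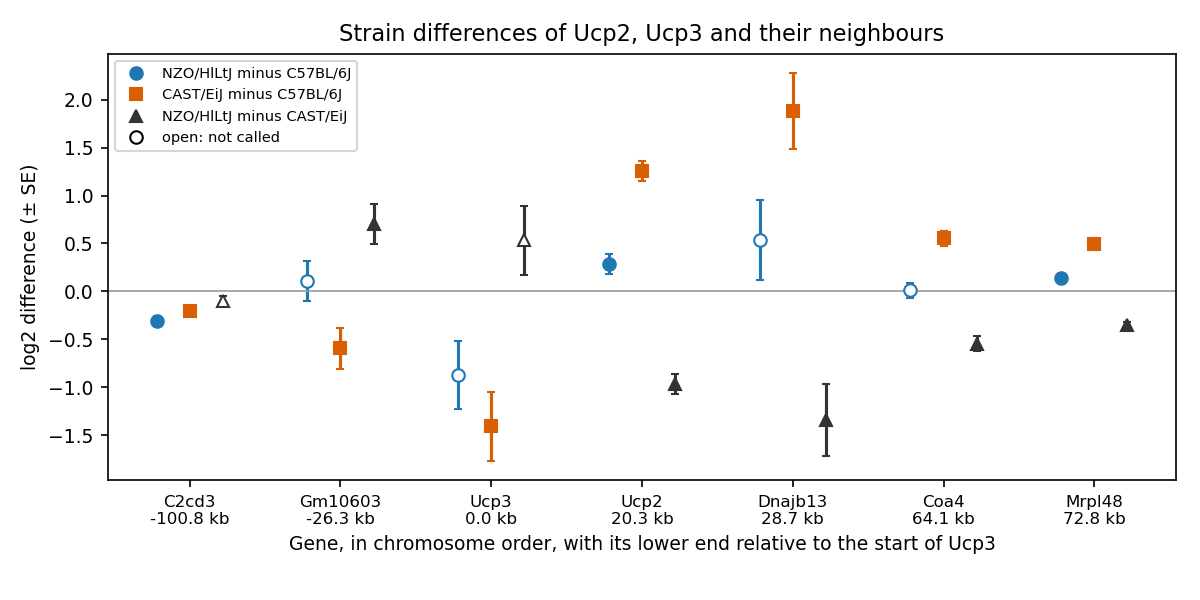
Log2 strain differences (± SE) of Ucp2, Ucp3 and the tested genes around them, in chromosome order, with the lower end of each gene in kb from the Ucp3 start. Filled points have an adjusted p under 0.05; in CAST/EiJ minus C57BL/6J, Ucp2, Dnajb13, Coa4 and Mrpl48 are above 0, and C2cd3, Gm10603 and Ucp3 are below 0.

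Within NZO/HlLtJ, Ucp3 moved from library to library together with Angptl4 and Pdk4, and within C57BL/6J with Pdk4, while no such relation passed the test in CAST/EiJ over its 8 libraries. In NZO/HlLtJ the correlation of log2 CPM between Ucp3 and Angptl4 was r = 0.959 over 8 libraries (exact permutation p = 0.000149, adjusted over 9 relations 0.00134), with rho = 0.952 (exact permutation p = 0.00114, adjusted 0.0103). Leaving out the 2 libraries farthest from the median of Ucp3 gave r = 0.880 (n = 6, exact permutation p = 0.0153). The 2 libraries with the lowest Ucp3, at 12.5 and 11.99 CPM, had 1.27 and 1.3 CPM of Angptl4, and the library with the highest, at 82.1 CPM, had 30.9 CPM. Erythroid markers ran the other way over the same libraries, summing to 4527 to 9921 CPM in the 4 with the highest Ucp3 and 6881 to 25725 CPM in the 4 with the lowest. The 7 white adipocyte markers summed to 32.3 to 113 CPM in the 4 with the highest Ucp3 and 16.8 to 63.9 CPM in the 4 with the lowest. The part of these cells in the correlation was not tested.

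In C57BL/6J the same pair gave r = 0.753 (n = 8, exact permutation p = 0.0325, adjusted 0.0730) and rho = 0.881 (exact permutation p = 0.00724, adjusted 0.0217), and r = 0.738 (exact permutation p = 0.0750) over the 6 libraries nearest the median. In CAST/EiJ it gave r = 0.651 (n = 8, exact permutation p = 0.0732, adjusted 0.132) and rho = 0.50 (exact permutation p = 0.216, adjusted 0.324), and r = 0.339 (exact permutation p = 0.522) over 6. The relation thus passed the adjustment by r in NZO/HlLtJ and by rho in NZO/HlLtJ and C57BL/6J. Without the CAST/EiJ male on 44% fat at 18.5 CPM of Ucp3, r was 0.788 in that strain (n = 7, adjusted exact permutation p = 0.0298). Whether it differed between strains was not tested.

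With Pdk4, Ucp3 gave r = 0.820 in NZO/HlLtJ (n = 8, exact permutation p = 0.0132, adjusted 0.0397; rho = 0.857, p = 0.0107, adjusted 0.0241) and r = 0.876 in C57BL/6J (exact permutation p = 0.00496, adjusted 0.0223; rho = 0.881, p = 0.00724, adjusted 0.0217). Over the 6 libraries nearest the median of Ucp3, r was 0.800 in NZO/HlLtJ (exact permutation p = 0.0472) and 0.753 in C57BL/6J (exact permutation p = 0.156), the last of which no longer passed. In CAST/EiJ r was 0.434 (n = 8, exact permutation p = 0.296, adjusted 0.443) and rho 0.643 (exact permutation p = 0.0962, adjusted 0.173), with r = 0.689 over 6 (exact permutation p = 0.150). In NZO/HlLtJ the adjusted permutation p was above 0.05, up to 0.0812, when any 1 of 7 of the 8 libraries was left out, and in C57BL/6J it was 0.0643 without the female on 44% fat that had 103 CPM of Ucp3. The identifier ranges hold 2 or 4 libraries of a strain, too few for a correlation within them, and Ucp3 and Angptl4 were both higher on average in the second range of NZO/HlLtJ (45.8 and 21.3 CPM) than in the third (25.2 and 6.62 CPM).

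No correlation between Ucp2 and Ucp3 passed the test. Their correlation was r = 0.340 in NZO/HlLtJ (exact permutation p = 0.407, adjusted 0.523), -0.176 in CAST/EiJ (exact permutation p = 0.698, adjusted 0.785) and -0.0380 in C57BL/6J (exact permutation p = 0.925, adjusted 0.925), with n = 8 each and rho of 0.238, 0.238 and 0.262 (exact permutation p = 0.582, 0.582 and 0.536, adjusted 0.582 for each). Over 6 libraries r was 0.651, -0.510 and -0.126.

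**Figure D5:**
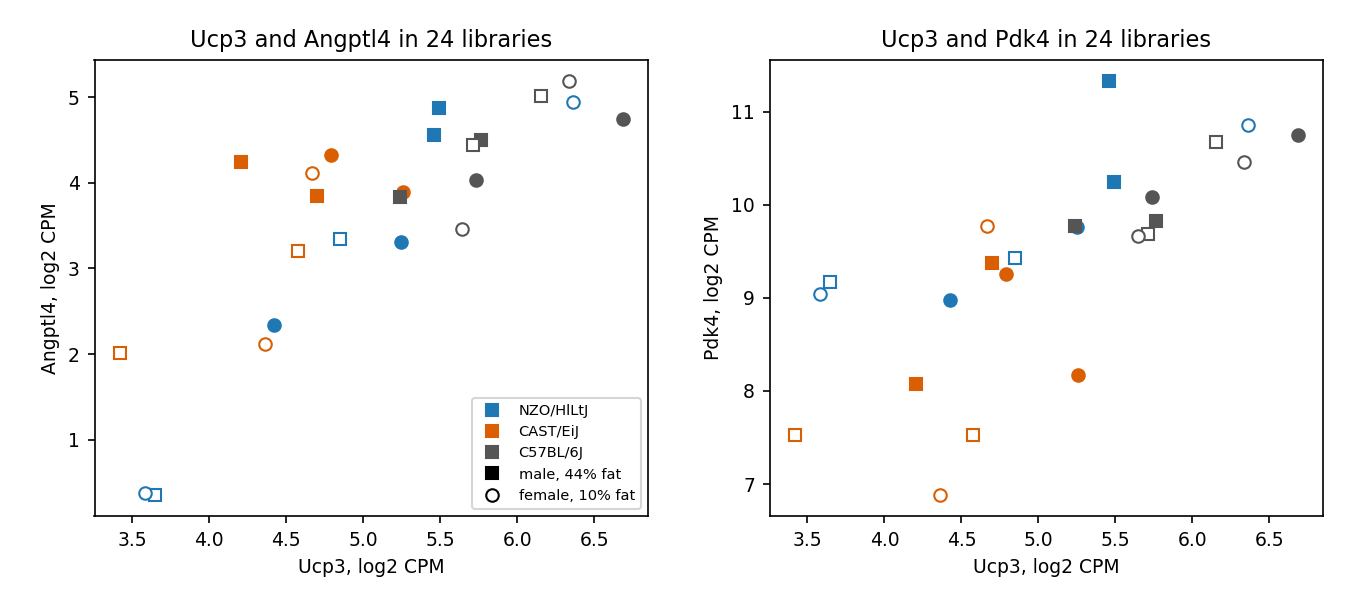
Log2 CPM of Angptl4 (left) and Pdk4 (right) against log2 CPM of Ucp3 in 24 libraries, coloured by strain, with squares for males, circles for females, filled points for 44% fat and open points for 10% fat. Within NZO/HlLtJ the points with Angptl4 lie near a line (r = 0.959), and CAST/EiJ lies low on both axes with Pdk4.

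Pdk4 also differed between strains. It averaged 399 ± 279 CPM in CAST/EiJ, 1101 ± 752 CPM in NZO/HlLtJ and 1157 ± 375 CPM in C57BL/6J (SD, n = 8 each), a log2 difference of -1.62 for CAST/EiJ minus C57BL/6J (SE 0.43, edgeR adjusted p = 0.00566) and 1.42 for NZO/HlLtJ minus CAST/EiJ (SE 0.43, adjusted p = 0.0116). Angptl4 averaged 12.9 ± 6.31 CPM in CAST/EiJ, 13.96 ± 12.2 CPM in NZO/HlLtJ and 22.8 ± 8.91 CPM in C57BL/6J, and CAST/EiJ minus C57BL/6J was -0.91 (SE 0.54, adjusted p = 0.172), which did not pass. On diet, Pdk4 had a log2 difference of 0.31 (SE 0.34, adjusted p = 0.854) and Angptl4 of 0.40 (SE 0.45, adjusted p = 0.860), neither of them called.

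Over all genes, likeness was measured as the Pearson correlation of log2(CPM + 1) among 12039 genes with a mean of at least 1 CPM, leaving out clone-named genes such as the Gm and Rik series, as a description. Over the 24 libraries, which share strain differences, the genes most like Ucp2 were Nudt4 (r = 0.959), a nucleotide polyphosphate hydrolase, Acsm5 (0.941), a mitochondrial acyl-CoA synthetase, Mustn1 (0.939), Pde7b (0.929), a cAMP phosphodiesterase, and Tacc1 (0.929). Each was highest in CAST/EiJ, with Nudt4 at 653 CPM in CAST/EiJ, 327 CPM in NZO/HlLtJ and 264 CPM in C57BL/6J. Those most like Ucp3 were Aldh9a1 (0.866), an aldehyde dehydrogenase of carnitine synthesis, Angptl4 (0.830), Mlycd (0.8291), the malonyl-CoA decarboxylase that relieves the block on fatty acid import, Gab1 (0.795) and Hsd17b11 (0.792), a lipid droplet enzyme. Each of these had its highest mean in C57BL/6J and its lowest in CAST/EiJ.

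After the 12 group means were taken out, which leaves only differences between the 2 libraries of a group, the genes most like Ucp3 were Angptl4 (0.895), Mmp3 (0.891), Zfp53 (0.890), Cyp1b1 (0.883) and Lrch1 (0.879). Those most like Ucp2 were the histone genes Hist2h3c2 (0.904) and Hist2h4 (0.863), Phkg1 (0.852), the muscle phosphorylase kinase subunit, Tsc22d1 (0.838) and Sgca (0.833), a sarcoglycan. Hist2h3c2 and Hist2h4 had means of 1.06 and 1.04 CPM, just over the cut of 1 CPM. Angptl4 was on both lists of Ucp3, and no gene was on both lists of Ucp2. Outside NZO/HlLtJ, the 2 libraries of every group came from different identifier ranges. In those groups, a difference between libraries cannot be told apart from a difference between ranges. The part of the identifier ranges in these likenesses was not tested. The NZO/HlLtJ females on 10% fat, at 82.1 and 11.99 CPM, were farther apart in Ucp3 than the libraries of any other group. How far the Ucp3 likenesses rest on that pair was not tested.

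Related carriers and the fatty acid genes gave the setting of the strain differences. Of 9 related mitochondrial carriers, 3 were higher and 2 lower in CAST/EiJ than in C57BL/6J, beside 29.1% of all genes higher and 29.7% lower, and the median difference was 0.08 against 0.00 over all genes tested. Slc25a30, a carrier of the same branch as the uncoupling proteins, was at 8.51 ± 1.26 CPM in CAST/EiJ, 4.32 ± 1.09 CPM in NZO/HlLtJ and 4.69 ± 0.531 CPM in C57BL/6J and rose by 0.86 (SE 0.10, adjusted p = 5.21e-07) in CAST/EiJ over C57BL/6J. Slc25a4, the main heart ATP/ADP carrier, rose by 0.10 (SE 0.03, adjusted p = 0.0144), and Slc25a27 (Ucp4) and Slc25a20, the carnitine-acylcarnitine carrier, fell by 0.43 and 0.23. The counts were 0 higher and 3 lower in NZO/HlLtJ minus C57BL/6J (17.9% and 17.6% of all genes), and 1 higher and 3 lower in NZO/HlLtJ minus CAST/EiJ (30.5% and 29.8% of all genes). No carrier was called for diet in any strain or overall by edgeR.

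Of 23 PPAR-responsive fatty acid genes, 16 were lower and 1 higher in CAST/EiJ than in C57BL/6J, beside 29.7% of all genes lower and 29.1% higher, with a median log2 difference of -0.21 against 0.00 over all genes. Acadm, a medium-chain acyl-CoA dehydrogenase, fell by 0.75 (SE 0.04), Ech1 by 0.73 (SE 0.06), Fabp3, the heart fatty acid binding protein, by 0.47 (SE 0.05) and Decr1 by 0.47 (SE 0.06), as Ucp3 fell by 1.41. The gene that was higher was Plin2, a lipid droplet coat protein. Of the same 23, 13 were higher and 3 lower in NZO/HlLtJ minus CAST/EiJ, with a median of 0.13, beside 30.5% of all genes higher and 29.8% lower. Against C57BL/6J, NZO/HlLtJ had 1 higher and 6 lower, with a median of -0.10, beside 17.9% higher and 17.6% lower.

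On diet over the 3 strains, 6 of the 23 were higher on 44% fat and 0 lower, beside 0.128% of all genes higher and 0.0291% lower, and the median was 0.21 against 0.00 over all genes. The 6 were Decr1 (0.33, SE 0.05), Ech1 (0.32, SE 0.05), Fabp3 (0.22, SE 0.04), Hadha (0.22, SE 0.03), Cpt2 (0.20, SE 0.04) and Hadhb (0.18, SE 0.03), with adjusted p-values between 0.0154 and 0.0310, and they were named after their values were seen. When each of the 24 libraries was left out in turn, Ech1 stayed called in 24 of 24 fits and Decr1 and Hadha in 23 each, but Fabp3 in 8, Cpt2 in 7 and Hadhb in 7, with adjusted p-values of up to 0.0808, 0.0973 and 0.0863. They encode enzymes and a binding protein of mitochondrial fatty acid oxidation. Their standard errors were a fraction of that of Ucp3 (0.29), whose own difference of 0.19 lay in the same range.

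Among 16 nuclear receptors and coactivators of fatty acid metabolism, 4 were higher and 5 lower in CAST/EiJ than in C57BL/6J, beside 29.1% of all genes higher and 29.7% lower, and 8 of the 16 had a positive difference. Ppard, the PPAR delta gene, rose by 0.51 (SE 0.04) and Thrb, a thyroid hormone receptor gene, by 0.70 (SE 0.04), while Rxrg, a partner of PPARs, fell by 0.75 (SE 0.05). In NZO/HlLtJ minus C57BL/6J, 1 was higher and 3 lower, beside 17.9% and 17.6% of all genes, among them Ppargc1a, the PGC-1 alpha coactivator gene, at -0.72 (SE 0.12, adjusted p = 0.000325). In NZO/HlLtJ minus CAST/EiJ, 3 were higher and 5 lower, beside 30.5% and 29.8% of all genes. None of the 16 was called for diet by edgeR.

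Of 11 mitochondrial antioxidant genes, 5 were higher and 3 lower in CAST/EiJ than in C57BL/6J, beside 29.1% of all genes higher and 29.7% lower, with a median of 0.11. Nnt, a mitochondrial source of NADPH, was at 721 ± 82.9 CPM in CAST/EiJ, 514 ± 23.2 CPM in NZO/HlLtJ and 435 ± 21.4 CPM in C57BL/6J. Its CAST/EiJ minus C57BL/6J difference was 0.73 (SE 0.04), while Gpx4 fell by 0.42 (SE 0.04). These are RNA levels, which do not show whether a working protein is made. The counts were 2 higher and 0 lower in NZO/HlLtJ minus C57BL/6J (17.9% and 17.6% of all genes), and 4 higher and 4 lower in NZO/HlLtJ minus CAST/EiJ (30.5% and 29.8% of all genes). None of the 11 was called for diet by edgeR.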

How the data were processed

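Polyadenylated RNA was sequenced from 24 samples of mouse heart, in paired reads, per the labels. The authors deposited expected counts per gene (19.3% of values not whole at a tolerance of 1e-06), log2-like variance-stabilized values and a table of gene positions. Per the submitters' processing notes, GRCm38 and DESeq2 were used, with no role given. The sources used here give no aligner, counter, annotation release or strand handling. How reads of strains other than the reference strain were mapped is therefore unknown, and its part in the strain differences was not tested. Expected counts were rounded and fitted with edgeR 4.0.16 (quasi-likelihood, robust, 1 mean for each of 12 groups, TMM factors 0.954 to 1.06). The filter was filterByExpr (min.count 10, min.total.count 15), and a call means an adjusted p (Benjamini-Hochberg, over 17203 genes) under 0.05. The fit was checked on simulated data. Strain, diet and sex contrasts weighted groups equally. CPM are counts per 1000000 of the TMM-scaled total. DESeq2 1.42.0, limma 3.58.1 and other settings were alternatives. Transcript lengths came from GENCODE M21, which held 20840 of 20961 identifiers. The 2 libraries of each of the 12 groups differed beyond counting noise, with chi-square over its degrees of freedom between 11.6 and 68.4.

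Genes named were Ucp2 and Ucp3, up to 4 called members of smallest adjusted p from each list in each strain comparison, Pdk4 and Angptl4, tested coding genes within 100 kb, and the 5 genes most like each member. The members, lists and tests were chosen with earlier results of these data known.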

Additional observations from a re-analysis of the deposited data

Results flagged for a closer look

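The Ucp3 level of 1 library stood apart from its strain. Among the 8 NZO/HlLtJ libraries, the first female on 10% fat had 82.1 CPM, and the next highest library had 45.1 CPM. The gap was 0.528 of the whole range, just past Dixon's 95% critical value for 8 values. Chance flags about 1 in 20 groups, and 18 groups of libraries were checked for Ucp2 and Ucp3. The same library had 30.9 CPM of Angptl4 and 1859.5 CPM of Pdk4, against 1.3 and 528 CPM in the other female of its group.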

How the results depend on the processing

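Of 250 results of Ucp2 and Ucp3 under alternatives other than leaving out a library, 231 kept direction and side of the threshold. Still called whichever of the 24 libraries was left out were Ucp2 in CAST/EiJ minus C57BL/6J (1.19 to 1.31), Ucp2 in NZO/HlLtJ minus CAST/EiJ (-1.03 to -0.91) and Ucp3 in CAST/EiJ minus C57BL/6J (-1.58 to -1.27). No paired analysis was possible because replicate numbers follow accession order and pair no samples; the identifier range was used as a block instead.

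Ucp2 in NZO/HlLtJ minus C57BL/6J lost its call with TMM without mitochondrially encoded genes (0.28), DESeq2 size factors (0.28), no filter (0.28), limma-voom (0.29), limma on the variance-stabilized values (0.27), the range block (0.12), the second range (0.22) and the third range (0.12). Ucp3 in CAST/EiJ minus C57BL/6J lost it in the second range (-1.58). Ucp3 in NZO/HlLtJ minus C57BL/6J was called by limma-voom (-1.04, adjusted p = 0.0373), limma on the variance-stabilized values (-0.89, 0.0443), DESeq2 (-0.88, 0.0360) and in the third range (-1.86, 0.0318). The fits to the second range alone and to the third range alone were chosen after seeing the data and had no term for sex or diet. Signs turned for Ucp3 in the C57BL/6J diet effect in the first range (0.070), in the diet effect of NZO/HlLtJ minus CAST/EiJ by limma-voom (0.10), variance-stabilized values (0.038) and block (0.076), in NZO/HlLtJ minus CAST/EiJ in the third range (-0.088) and in the sex effect of NZO/HlLtJ minus C57BL/6J with the block (-0.23). Among other genes, signs turned for the Pdk4 diet effect in C57BL/6J (block 0.026, first range 0.29), Pdk4 in NZO/HlLtJ minus C57BL/6J (second range 0.30), the Angptl4 diet effect in C57BL/6J (first range 0.30) and in NZO/HlLtJ minus CAST/EiJ (limma-voom 0.32), Angptl4 in NZO/HlLtJ minus CAST/EiJ (second range 0.98), Slc25a20 in NZO/HlLtJ minus CAST/EiJ (the third range -0.028) and Coa4 in NZO/HlLtJ minus C57BL/6J (second range -0.058). The cause was not tested for any of these.

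Genes called in CAST/EiJ minus C57BL/6J numbered 10116 in all, 3629 in the second range and 6254 in the third, in NZO/HlLtJ minus C57BL/6J 6108, 1307 and 3263, and in NZO/HlLtJ minus CAST/EiJ 10373 and 5100 in the second, where fewer samples were fitted. The diet count over the strains was 27, with DESeq2 106 and with the block 17. In C57BL/6J it was 7, with DESeq2 37, in the first range 0 and with the strain alone 36. In CAST/EiJ it was 0, with DESeq2 30, in the first range 17, with the block 4 and on the variance-stabilized values 4. In NZO/HlLtJ it was 0, with DESeq2 12 and on the variance-stabilized values 2. The diet difference of CAST/EiJ minus C57BL/6J had 0 calls, with DESeq2 9, with DESeq2 size factors 1, with the block 4 and with TMM without mitochondrially encoded genes 1. That of NZO/HlLtJ minus C57BL/6J had 1, with DESeq2 4, with library totals 0 and on the variance-stabilized values 2, and that of NZO/HlLtJ minus CAST/EiJ had 0, with DESeq2 3. Sex calls numbered 64, with DESeq2 138, and those of sex by strain were 0, with DESeq2 7, 6 and 36.

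Leaving out each library in turn gave, for Ucp2, 0.24 to 0.34 in NZO/HlLtJ minus C57BL/6J, -0.071 to 0.054 in the NZO/HlLtJ diet effect and -0.22 to 0.035 in the diet effect of CAST/EiJ minus C57BL/6J. For Ucp3 it gave -1.37 to -0.67 in NZO/HlLtJ minus C57BL/6J, 0.039 to 0.73 in NZO/HlLtJ minus CAST/EiJ, -0.36 to 0.11 in the C57BL/6J diet effect, -0.18 to 1.21 in that of NZO/HlLtJ, -0.10 to 1.29 in that of NZO/HlLtJ minus C57BL/6J and -0.62 to 0.77 in that of NZO/HlLtJ minus CAST/EiJ. The Ucp3 sex effect ran from -0.41 to 0.17 in CAST/EiJ minus C57BL/6J, from -0.27 to 1.11 in NZO/HlLtJ minus C57BL/6J and from -0.22 to 1.17 in NZO/HlLtJ minus CAST/EiJ. Angptl4 ran from -0.95 to 0.28 in NZO/HlLtJ minus CAST/EiJ, from -0.66 to 0.21 in the C57BL/6J diet effect and from -1.11 to 1.35 in the diet effect of NZO/HlLtJ minus CAST/EiJ, Pdk4 from -0.27 to 0.22 and from -1.25 to 0.38 in those diet effects, and Coa4 from -0.030 to 0.048 in NZO/HlLtJ minus C57BL/6J. Correlations of Ucp2 with Ucp3 ran from -0.0327 to 0.833 in NZO/HlLtJ, -0.336 to 0.273 in CAST/EiJ and -0.200 to 0.378 in C57BL/6J, those of Ucp3 with Pdk4 from 0.766 to 0.920 in NZO/HlLtJ and 0.812 to 0.909 in C57BL/6J, and of Ucp3 with Angptl4 from 0.302 to 0.788 in CAST/EiJ.

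Diet calls ran from 4 (without NZO/HlLtJ male 10% fat replicate 2) to 143 (without NZO/HlLtJ male 44% fat replicate 1) over the strains, from 0 to 113 in NZO/HlLtJ (the same male on 44% fat), from 0 to 18 in CAST/EiJ (without male 10% fat replicate 2) and from 1 to 20 in C57BL/6J. Those of the diet difference ran from 0 to 8 for CAST/EiJ minus C57BL/6J, 0 to 3 for NZO/HlLtJ minus C57BL/6J and 0 to 4 for NZO/HlLtJ minus CAST/EiJ. Sex calls ran from 39 to 78, and those of sex by strain from 0 to 25 for CAST/EiJ minus C57BL/6J and 0 to 18 for NZO/HlLtJ minus CAST/EiJ, both highest without the CAST/EiJ female on 10% fat replicate 1.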
